A study of Homo sapiens with 6 samples.

Results

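HOX cluster genes are the homeobox genes of the HOXA, HOXB, HOXC and HOXD clusters. They were taken here as every probe set whose only gene symbol was HOXA, HOXB, HOXC or HOXD followed by a number, with the probe set of highest mean log2 signal standing for its gene. This rule gave 31 probe sets for 24 genes, out of 19064 probe sets for 11963 genes on the array. The 24 were 1 HOXA gene, 9 HOXB genes, 7 HOXC genes and 7 HOXD genes, of 39 HOX cluster genes in the RefSeq gene table. The other 15 were not analysed here, 10 of them in the HOXA cluster, so that cluster is represented by HOXA2 alone.

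The arrays held RNA from U87 cells, a human glioblastoma cell line, kept for 16 h in medium with 10% serum. In 3 samples, called IRE1dn, the cells expressed a dominant negative transgene of IRE1alpha, the endoplasmic reticulum stress sensor that splices XBP1 messenger RNA. In 3 control samples they carried the matching plasmid with no insert. The labels name 1 clone for IRE1dn and use the plural for the controls without tying a clone to an array. With 1 IRE1dn clone named, the transgene and the clone cannot be told apart in any difference between the groups given below. They give no promoter for the transgene. Nothing in them says that the arrays of a group came from different cultures, and p-values then cover array-to-array spread that may be technical only. With RNA from whole cultures, fewer cells expressing a gene and less RNA per cell cannot be told apart.

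HOX proteins are transcription factors that bind DNA through a homeodomain, commonly together with PBX and MEIS or PREP homeodomain partners, and give cells positional identity along the body axis. Within a cluster, genes of low paralog number are expressed more towards the head and those of high number more towards the tail and limb ends. The state of the clusters is held by Polycomb repressors and trithorax or MLL activators. The adult forebrain largely lacks HOX expression, and HOX genes are often found active in glioblastoma.

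Signals are linear intensities scaled to a trimmed mean of 100 units on every array, with array medians between 18.4 and 21.03 units. A gene was tested if its mean log2(signal + 1.75) lay above the 40th percentile of genes, a level equal to a signal of 12.97 units. This filter kept 7178 genes. A HOX gene is called near background here when both group means lay at or under 12.97 units. As a yardstick, 52 genes restricted to other tissues, such as liver, pancreas, retina and testis, had a median signal of 2.49 units over all arrays, 90% of their 312 values lay under 8.52 units, and 1 of the 52 passed the filter. The labelled cell type had mixed markers. Of 12 glioblastoma and astroglial markers, CD44, VIM, EGFR, CHI3L1 and SOX9 lay above the level on all arrays. GFAP, S100B, SOX2, FABP7 and AQP4 lay at or under it on all arrays, GFAP and S100B with means of at most 1.55 units. OLIG2 fell by 1.74 without the filter (16.4 and 3.42 units, limma adjusted p = 0.019), and the groups overlapped for NES. Of the 6 tested, EGFR, CHI3L1 and SOX9 were higher at a limma adjusted p under 0.05 and 0 lower, against 17.9% and 16.5% of all tested genes. Of 10 fibroblast and mesenchymal markers 9 passed the filter, COL3A1 through IRE1dn (mean 4.65 units in controls). All 9 were higher in IRE1dn at a limma adjusted p under 0.05, against 17.9% of all tested genes. The summed signal of all 10 markers was 1418 to 2548 units in controls and 7622 to 10402 units in IRE1dn. THY1, the marker not tested, lay at or under the level on all arrays. Of the other cell types, 0 of 6 endothelial and 0 of 5 epithelial markers passed the filter, against 1 of 5 myeloid markers (CSF1R, higher in IRE1dn) and 2 of 4 neuronal markers (SNAP25 and GAD1, not called). The part of these differences in the HOX values was not tested.

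Most HOX cluster genes gave little signal in either group. Of the 24, 16 were near background, 13 of these stayed at or under 12.97 units on every array, and 3 lay above it on every array: HOXB2, HOXC4 and HOXC6. The 8 genes with a group mean above the level were HOXB2, HOXB5, HOXB7, HOXC4, HOXC5, HOXC6, HOXD9 and HOXD11. By cluster these were 0 of 1 in HOXA, 3 of 9 in HOXB, 3 of 7 in HOXC and 2 of 7 in HOXD. By paralog number they were 1 of 5 anterior genes (numbers 1 to 3), 5 of 9 central genes (4 to 8) and 2 of 10 posterior genes (9 to 13). A signal under the level is not called absent.

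**Figure D1:**
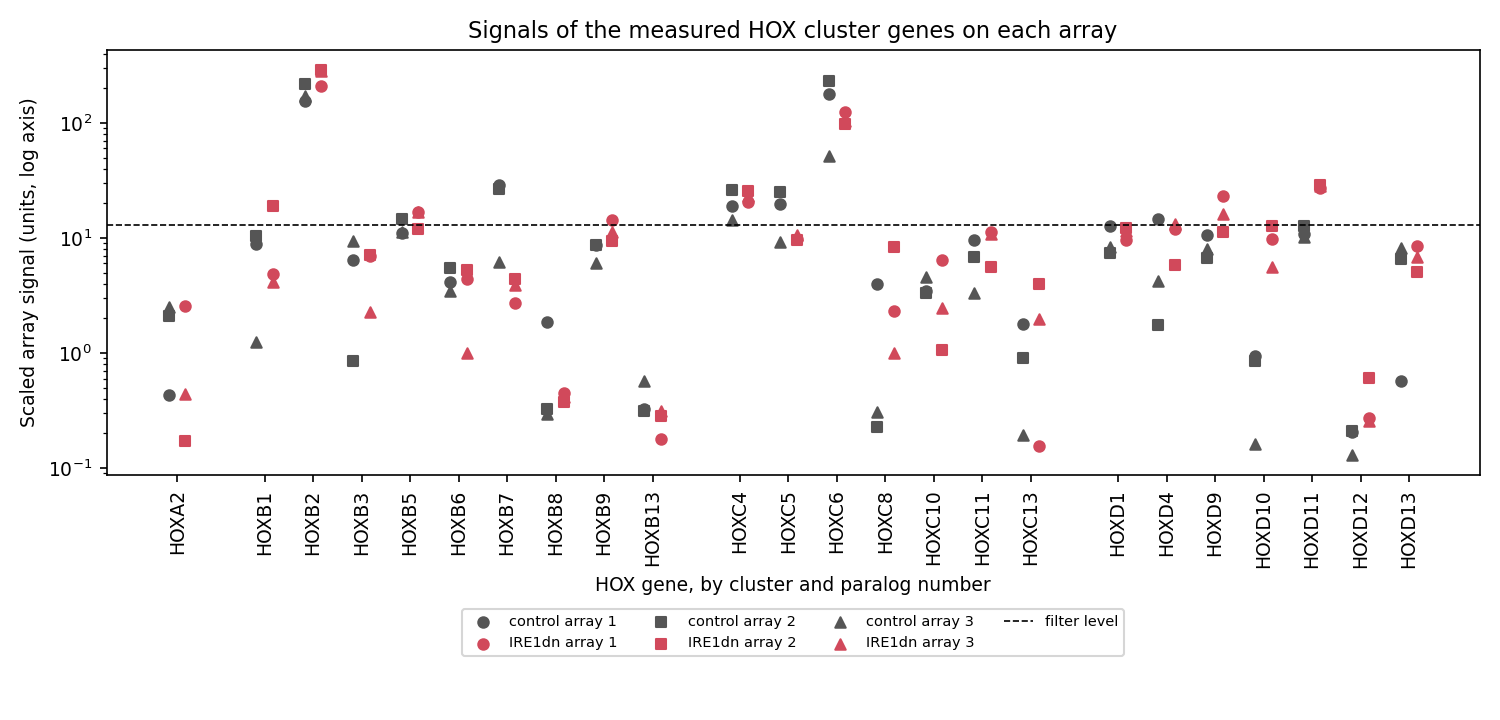
Scaled signal (log axis) of the probe set chosen for each of the 24 measured HOX genes on each of 3 control and 3 IRE1dn arrays, ordered by cluster and paralog number; the dashed line is the filter level of 12.97 units. HOXB2, HOXC4 and HOXC6 lie above the line on all arrays, and HOXD11 lies above it in IRE1dn only.

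Of the 24 genes, 6 passed the filter and were tested: HOXB2, HOXB5, HOXC4, HOXC5, HOXC6 and HOXD11. In limma, 1 of the 6 was higher in IRE1dn at an adjusted p under 0.05, where 17.9% of all tested genes were, and 0 were lower, where 16.5% of all tested genes were. At an unadjusted limma p under 0.05, 2 of the 6 were higher (HOXB2 and HOXD11) and 0 lower, against 24.0% and 22.1% of all tested genes. In a limma fit of all 11963 genes without the filter, 2 of 24 were higher (HOXD10 and HOXD11), against 9.76% of all genes. There 1 of 24 was lower (HOXB7), against 9.31%. Of the 52 yardstick genes 0 were higher and 2 lower in that fit. The arrays of the groups did not overlap for 5 of 24 with IRE1dn higher, against 19.4% of all genes, and for 1 of 24 with IRE1dn lower, against 17.6%. The median log2 change of the 24, mostly dim, was 0.25, against 0.02 over all genes. In value 16 genes were higher and 8 lower in IRE1dn, against 6156 higher and 5807 lower of all 11963 genes.

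**Figure D2:**
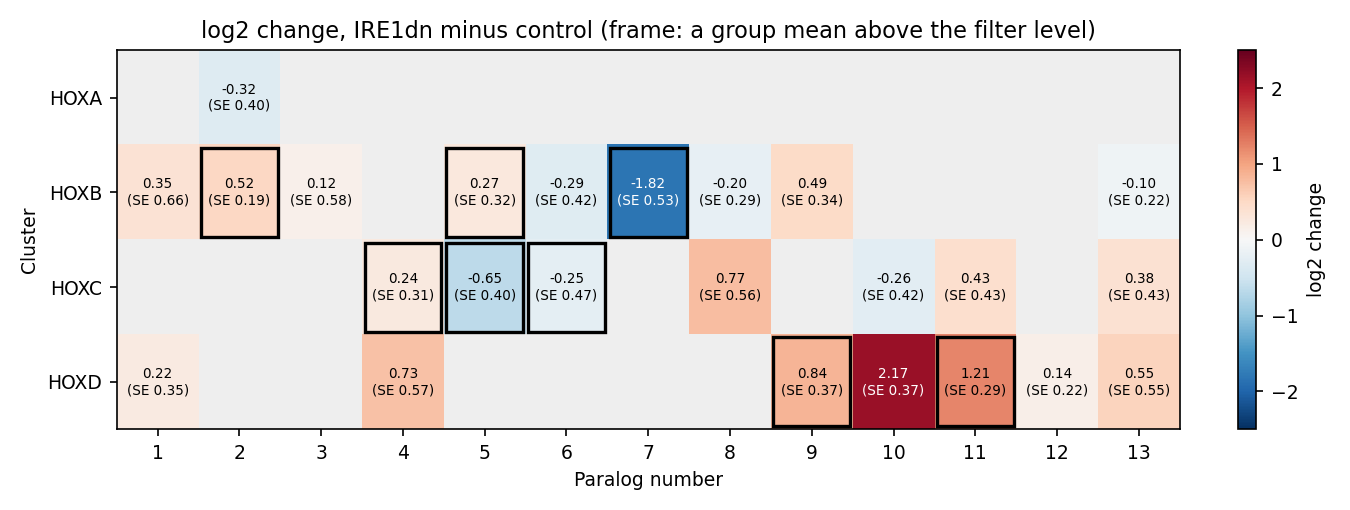
Log2 change (IRE1dn minus control, with its SE, from the limma fit without the filter) of each measured HOX gene by cluster (rows) and paralog number (columns); red is higher in IRE1dn, blue lower, grey not analysed, and a black frame marks a group mean above 12.97 units. With all 6 arrays the 7 HOXD values are above 0, with 2.17 for HOXD10 and 1.21 for HOXD11 (0.60 and 0.70 with a pseudocount of 16), and HOXB7 stands at -1.82; values of genes without a frame rest on signals near background.

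HOXD11 was the HOX gene that rose in the test of filtered genes. HOXD11 is a posterior gene that patterns the forearm and the vertebral column. Its control signals were 10.8, 12.6 and 10.1 units, and its IRE1dn signals were 27.2, 28.8 and 28.3 units. The groups did not overlap, and every IRE1dn array lay above the filter level while every control array lay under it, so the gene passed the filter through IRE1dn. The means were 11.2 ± 1.31 (SD, n = 3) and 28.1 ± 0.799 (SD, n = 3) units, a ratio of 2.51. The log2 change was 1.21 (SE 0.25; limma adjusted p = 0.0052), with adjusted p-values of 0.0016 to 0.030 over its 16 alternatives. The size was 0.70 with a pseudocount of 16, and in the fit without the filter (limma adjusted p = 0.018) the call ended when any IRE1dn array was left out (0.059 to 0.086).

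HOXD10, the next gene of the cluster, patterns the hindlimb and lower spinal cord. Control arrays gave 0.947, 0.852 and 0.162 units, and IRE1dn arrays gave 9.86, 12.6 and 5.56 units. The groups did not overlap, yet all arrays lay under 12.97 units, and the IRE1dn mean of 9.33 ± 3.54 (SD, n = 3) was close to the upper values of the yardstick genes. HOXD10 was therefore near background by rule and was tested without the filter only. There it rose by 2.17 (SE 0.37; limma adjusted p = 0.0043), a size that was 0.60 with a pseudocount of 16 (limma adjusted p = 0.0094). Adjusted p-values were 0.0042 to 0.023 over 11 alternatives.

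HOXD9 had control signals of 10.6, 6.67 and 7.95 units and IRE1dn signals of 22.9, 11.4 and 16.1 units. The groups did not overlap. HOXD9, also a posterior gene, did not pass the filter, and without the filter its log2 change was 0.84 (SE 0.37; limma adjusted p = 0.15). Its other probe set read 0.296 to 0.846 units on all arrays, so the pair of probe sets did not show the same level or difference. HOXD9, HOXD10 and HOXD11 lie side by side in the cluster, and the 3 log2 changes of 0.84, 2.17 and 1.21 had the same sign. All 7 measured HOXD genes were higher in value in IRE1dn, so the sign was not particular to these 3.

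The starts of HOXD11 and HOXD10 are shown because these were the members that passed a test upwards, and that of HOXC4 and HOXC5 because the RefSeq annotation gives both genes 1 shared start while their values differed (below). The sequences come from the RefSeq promoter windows on GRCh38.p14, 250 bases before to 50 bases after the annotated start, 5′ to 3′ on the plus strand. The table held windows for 10 of the 24 genes, 9 of them distinct. The windows lie at chr2:176107030-176107329 for HOXD11, chr2:176116528-176116827 for HOXD10 and chr12:54016638-54016937 for HOXC4 and HOXC5. Capitals mark matches, on either strand, to any of the motifs TATAAA (the TATA box), CCAAT (bound by NF-Y), AGGTCA (the half-site of nuclear receptors), TGATNNAT (bound by PBX with HOX proteins) and TGACGTGG (an element bound by XBP1 and ATF6).
HOXD11: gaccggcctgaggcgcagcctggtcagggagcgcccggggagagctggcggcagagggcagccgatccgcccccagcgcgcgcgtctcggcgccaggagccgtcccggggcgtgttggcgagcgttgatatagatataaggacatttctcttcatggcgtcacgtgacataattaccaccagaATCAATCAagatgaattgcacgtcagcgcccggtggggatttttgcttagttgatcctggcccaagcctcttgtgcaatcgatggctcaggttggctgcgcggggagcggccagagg
HOXD10: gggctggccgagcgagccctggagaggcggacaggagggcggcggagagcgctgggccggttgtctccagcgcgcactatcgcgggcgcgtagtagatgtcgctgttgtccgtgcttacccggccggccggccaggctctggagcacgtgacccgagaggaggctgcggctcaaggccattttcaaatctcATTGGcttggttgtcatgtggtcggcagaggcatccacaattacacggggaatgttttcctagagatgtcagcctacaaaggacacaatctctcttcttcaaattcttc
HOXC4 and HOXC5: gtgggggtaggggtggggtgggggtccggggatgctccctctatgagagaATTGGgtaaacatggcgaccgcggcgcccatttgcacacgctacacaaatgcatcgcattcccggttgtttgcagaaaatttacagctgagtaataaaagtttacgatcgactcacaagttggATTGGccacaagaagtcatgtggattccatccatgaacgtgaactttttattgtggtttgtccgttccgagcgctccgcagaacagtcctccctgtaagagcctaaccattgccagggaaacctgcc

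The HOXD11 window held 1 match to TGATNNAT on the minus strand, starting 67 bases before the start, and no other match. The windows of HOXA2 and HOXB1, both near background, also held that motif. Of 35116 RefSeq windows of the same length, 7.4% held that motif. The HOXD10 window held 1 CCAAT on the minus strand, 59 bases before the start, and the HOXC4 and HOXC5 window held 2, where 34.6% of all windows held at least 1. Of the 10 HOX windows only that of HOXD11 held no CCAAT. None of the 10 HOX windows held TGACGTGG, which 0.729% of all windows held, or AGGTCA, which 13.8% held. HOXD13 alone of the 10 held TATAAA, which 11.5% of windows held. HOXD11 and HOXD10 had 27 and 23 CpG dinucleotides in their windows, against a median of 14 over all windows. HOXD1, HOXD13 and HOXD12, near background, had 36, 24 and 19, and HOXD4 had 4, so high counts were not particular to the called genes. These matches describe the letters only.

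The other HOXD genes were near background. HOXD12 read 0.205, 0.211 and 0.129 units in controls and 0.274, 0.612 and 0.254 units in IRE1dn, so its groups did not overlap, but its log2 change was 0.14 (SE 0.22; limma adjusted p = 0.74 without the filter). HOXD13, the most posterior member, read 0.574 to 8.11 units in controls and 5.09 to 8.49 units in IRE1dn. Its other probe set read 6.37, 6.94 and 5.88 units in controls and 6.42, 1.35 and 0.305 units in IRE1dn, so the pair differed in direction. HOXD4 read 14.7, 1.75 and 4.19 units in controls and 12.1, 5.86 and 13.1 units in IRE1dn, with a wide spread in both groups. HOXD1 read 7.34 to 12.6 units over all arrays. None of these 4 passed a limma test in the fit without the filter, where the call of HOXD10 and HOXD11 is given above.

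HOXB2, an anterior gene that patterns the hindbrain, gave 156, 219.7 and 173 units in controls and 211, 291 and 285 units in IRE1dn. The groups overlapped, because the first IRE1dn array lay under the second control array. The means were 183 ± 33.0 and 262 ± 44.6 units (SD, n = 3 each). HOXB2 was 0.52 higher on the log2 scale (SE 0.20), which did not pass (limma adjusted p = 0.073). Without control array 2 the change was 0.66 and passed (limma adjusted p = 0.040), so the call depended on that array.

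HOXB7, a central gene reported to promote growth in several tumour types, gave 29.0, 26.4 and 6.16 units in controls and 2.70, 4.38 and 3.93 units in IRE1dn. The groups did not overlap, but control array 3 lay close to the IRE1dn arrays and far under the other controls. The means were 20.5 ± 12.5 and 3.67 ± 0.870 units (SD, n = 3 each). HOXB7 did not pass the filter, and without it fell by 1.82 (SE 0.53; limma adjusted p = 0.041). The call ended with a pseudocount of 16 (-0.83; limma adjusted p = 0.060), with eBayes without trend (limma adjusted p = 0.060) and when control array 1 or 2 or any IRE1dn array was left out (0.10 to 0.13). Without control array 3 the change was -2.45 (limma adjusted p = 0.0031), in a fit where 9.67% of all genes were lower. The other 2 probe sets of HOXB7 had the same order among controls: 26.3, 18.0 and 2.47 units in 1 of them, and 17.1, 7.99 and 0.875 units in the other. In IRE1dn these read 3.12 to 6.03 and 1.22 to 2.63 units. In both probe sets control array 3 lay under the lowest IRE1dn array.

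HOXB5 gave 11.1, 14.5 and 11.3 units in controls and 16.9, 11.8 and 16.8 units in IRE1dn, and the groups overlapped (log2 change 0.27, SE 0.28; limma adjusted p = 0.50). Its chosen probe set and that of HOXB9 are of a type (x_at) that can bind related transcripts, so HOX paralogs may share their signal. The other probe set of HOXB5 had means of 10.3 units in controls and 12.5 units in IRE1dn, both under the filter level. HOXB5 therefore counts as above the level through its chosen probe set only. HOXB9 gave 8.77, 8.63 and 6.05 units in controls and 14.4, 9.39 and 11.3 units in IRE1dn. These groups did not overlap, while the change of 0.49 (SE 0.34; limma adjusted p = 0.38 without the filter) did not pass. HOXB1 read 8.94, 10.3 and 1.24 units in controls and 4.83, 19.0 and 4.11 units in IRE1dn, a spread wider than any difference between the groups. HOXB3 (0.860 to 9.45 units), HOXB6 (1.00 to 5.47 units), HOXB8 (0.293 to 1.87 units) and HOXB13 (0.180 to 0.574 units) were near background with overlapping groups.

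**Figure D3:**
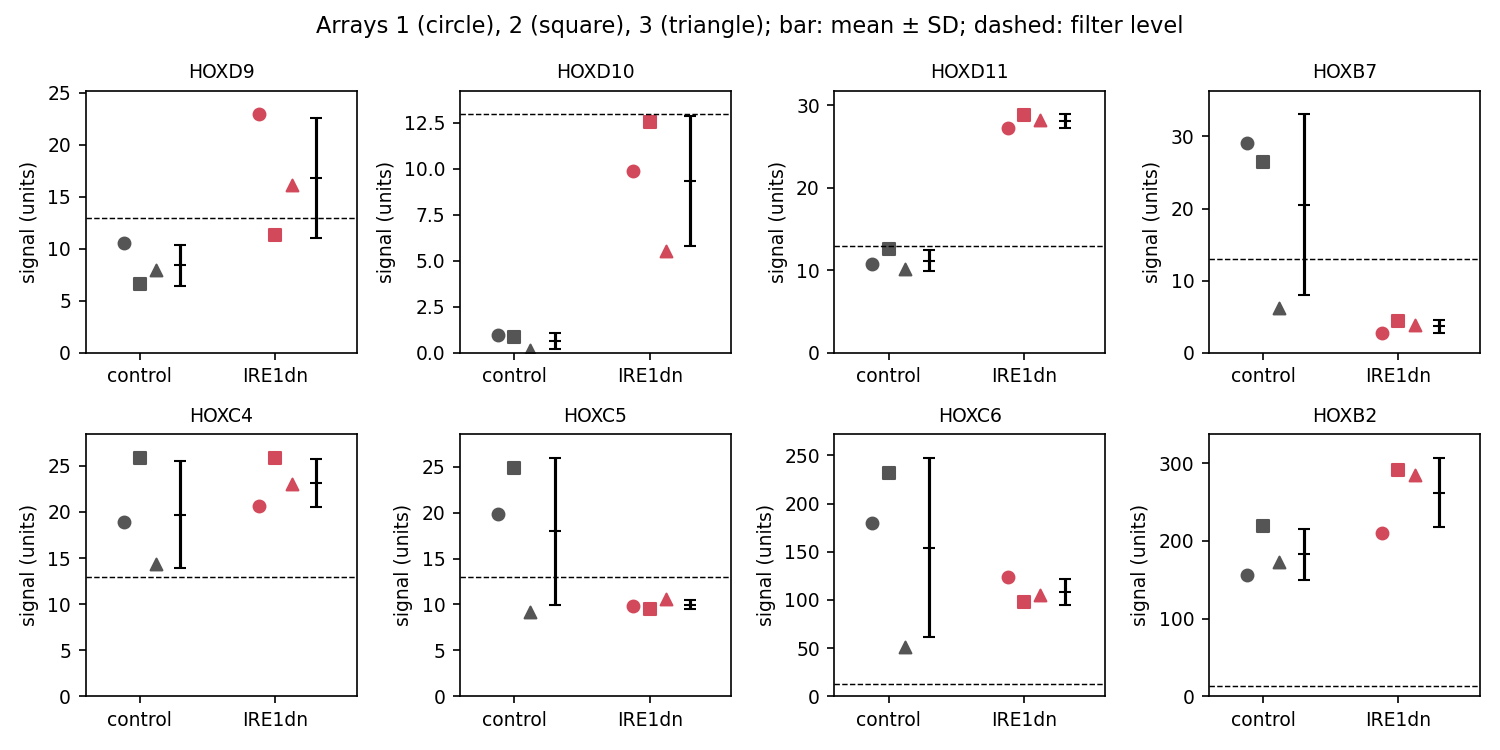
Scaled signals of 8 HOX genes on linear axes from 0, with array numbers by symbol, the mean and SD of each group as a bar (n = 3) and the filter level of 12.97 units as a dashed line. HOXD11 and HOXD10 separate by group, while in HOXB7, HOXC5 and HOXC6 control array 3 (triangle) lies far under control arrays 1 and 2.

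In the HOXC cluster none of 7 genes was called with all arrays, and 3 central genes carried signal. HOXC6, a central gene expressed in trunk and mammary tissue, gave 179.6, 232 and 51.1 units in controls and 124, 97.7 and 105 units in IRE1dn. The IRE1dn arrays lay between the controls. The log2 change was -0.25 (SE 0.46; limma adjusted p = 0.71). It was -0.91 without control array 3 (limma adjusted p = 0.0073), -0.02 without control array 1 and 0.17 without control array 2, so the call turned on control array 3 and the direction on control array 2.

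HOXC5 gave 19.8, 24.8 and 9.22 units in controls and 9.87, 9.55 and 10.6 units in IRE1dn. Control array 3 lay under all IRE1dn arrays and the other controls above them, so the groups overlapped. The log2 change was -0.65 (SE 0.36; limma adjusted p = 0.18), and -1.03 without control array 3 (limma adjusted p = 0.024). With control array 3 left out, 2 of 6 tested HOX genes (HOXC5 and HOXC6) were lower in IRE1dn. In that fit 17.6% of all tested genes were lower. HOXC5 passed the filter through control arrays 1 and 2, as its IRE1dn mean of 9.99 units lay under the filter level. With neither the filter nor control array 3, HOXC5 did not pass (limma adjusted p = 0.068) and HOXC6 did (limma adjusted p = 0.012). There 9.67% of all genes were lower. HOXC4, which shares the annotated start shown above with HOXC5, gave 18.9, 25.9 and 14.4 units in controls and 20.6, 25.8 and 23.1 units in IRE1dn. Its groups overlapped, and its value of 0.24 on the log2 scale (SE 0.28; limma adjusted p = 0.52) was 0.06 without control array 3 and 0.44 without control array 2. HOXC8 (0.227 to 8.38 units), HOXC10 (1.07 to 6.42 units), HOXC11 (3.33 to 11.3 units) and HOXC13 (0.156 to 3.97 units) were near background with overlapping groups. HOXA2, a hindbrain and second branchial arch gene, read 0.171 to 2.58 units over all arrays.

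The controls were not alike in the HOX genes. In HOXB1, HOXB7 and HOXC6, 3 of 24 genes, control array 3 lay over 2-fold (1 on the log2 scale) under both other controls. Of all 11963 genes 2.65% did so. Of the 3 only HOXC6 was tested, and 1.66% of tested genes did so. HOXC5 came near this limit, with control array 3 1.13 under the mean of the other controls on the log2 scale. The same held for control array 1 in HOXD13, against 2.53% of all genes, and for control array 2 in HOXB3, against 2.18%. This comparison was made after the values were seen. HOXD9, HOXD10 and HOXD11 did not show it: control array 3 differed from the mean of the others by -0.07, -0.47 and -0.18. The labels tie no clone to a control array, so clone and array cannot be told apart.

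Among the partners of HOX proteins, 3 of 5 tested PBX, MEIS and PREP genes rose and 0 fell in limma (0 also at an unadjusted p under 0.05), against 17.9% and 16.5% of all tested genes. PBX3, a partner that raises the DNA-binding specificity of HOX proteins, gave 96.9, 125.8 and 82.9 units in controls and 311, 452 and 635 units in IRE1dn (log2 change 2.14, SE 0.27; limma adjusted p = 0.00051). The groups were far apart. MEIS1, a partner of PBX and posterior HOX proteins, rose by 1.12 (0.65 with a pseudocount of 16), a call that ended without IRE1dn array 2 (limma adjusted p = 0.064). MEIS1 read 12.8, 9.75 and 12.7 units in controls and 26.0, 34.2 and 23.0 units in IRE1dn. All its controls lay under the filter level of 12.97 units, so it passed the filter through IRE1dn. PKNOX1, which encodes PREP1, rose by 0.70, a call that ended without any single IRE1dn array (0.067 to 0.10) and with the mean of its probe sets (0.29; limma adjusted p = 0.35). Without IRE1dn array 2, 1 of the 5 rose. The median log2 change of the 6 measured partners was 0.65.

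Of 19 tested Polycomb genes 6 rose and 0 fell in limma (9 higher and 0 lower at an unadjusted p under 0.05), where 17.9% and 16.5% of all tested genes rose and fell. The median change was 0.50 over 21 measured, and 3 rose without IRE1dn array 2 or without IRE1dn array 3. SUZ12 and EZH2, core subunits of the complex that methylates histone H3 at repressed genes, rose by 1.73 (SE 0.21) and 0.93 (SE 0.18). RBBP4 and RING1 rose by 0.74 and 0.73. The RBBP4 call ended without IRE1dn array 1 or 2 and the RING1 call without IRE1dn array 3 (limma adjusted p of 0.068 to 0.086). Of 12 tested trithorax and MLL genes 4 rose and 1 fell, against the same 17.9% and 16.5%, and 2 rose without IRE1dn array 1, without IRE1dn array 3 or with the mean of probe sets. The boundary factor CTCF rose by 1.00 (SE 0.18), the histone methyltransferase KMT2A by 0.90 (SE 0.24), PSIP1 by 0.78 and ASH2L by 0.71. The KMT2A change was 0.59 with a pseudocount of 16. The KMT2A call ended without IRE1dn array 1 or 3 (0.053 and 0.081), and the PSIP1 call without any single IRE1dn array (0.066 to 0.082) and with the mean of its probe sets (0.42; limma adjusted p = 0.092). KDM6B, a histone demethylase named after its values were seen, fell by 0.68 (limma adjusted p = 0.046), a call that ended in 8 alternatives and turned to 0.15 with the mean of its probe sets.

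Retinoic acid switches on HOX genes in sequence from the anterior end of the clusters. Of 9 tested genes of retinoic acid handling and CDX input, 2 rose and 2 fell, against 17.9% and 16.5% of all tested genes, and 1 rose and 1 fell with the mean of probe sets or a 60th percentile filter. ALDH1A3, which makes retinoic acid, fell from 726 ± 173 to 30.0 ± 2.48 units (SD, n = 3 each; log2 change -4.50, SE 0.21; limma adjusted p = 1.9e-06). The receptor RARB gave 7.97, 12.7 and 29.3 units in controls and 94.2, 105.8 and 69.4 units in IRE1dn, and rose by 2.47 (SE 0.39). The receptors RXRA and RARG changed by 1.78 and -1.45 (RXRA 0.89 with the mean of its probe sets, RARG -0.76 with a pseudocount of 16). The IRE1dn mean of RARG, 9.18 units, lay under the filter level, so RARG passed the filter through the controls.

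Homeobox genes outside the clusters were compared in the same fit. Of 65 measured, 18 passed the filter, 8 rose and 2 fell, against 17.9% and 16.5% of all tested genes, with a median change of 0.11 over the 65. Without IRE1dn array 2 there were 5 and 0, without IRE1dn array 3 there were 5 and 1, without IRE1dn array 1 there was 1 lower, and a 60th percentile filter gave 3 and 1. LHX2, a forebrain homeobox gene, gave 8.11, 14.7 and 3.90 units in controls and 80.5, 93.3 and 88.4 units in IRE1dn (log2 change 3.20, SE 0.36; 2.07 with a pseudocount of 16). NKX3-2, ZHX3 and ZEB1 rose by 1.50, 1.47 and 1.37 (NKX3-2 0.87 with a pseudocount of 16). The control means of LHX2 and NKX3-2, 8.91 and 10.8 units, lay under the filter level, so both passed the filter through IRE1dn. The 2 that fell, ZEB2 and LHX6, named after their values were seen, changed by -1.35 and -0.72. The calls of ZEB2 and LHX6 ended when some single arrays were left out (limma adjusted p up to 0.067 and 0.10). No test of the difference between the cluster genes and these genes was made.

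Genes beside the clusters were taken as the 3 nearest measured protein-coding genes on each side. Beside HOXD, CHN1, on the HOXD13 side, rose by 0.96 (SE 0.19), ATP5MC3, on the same side, fell by 0.76 (SE 0.15), and the other 4 tested did not pass, MTX2 and ATF2 among them (-0.41 and -0.37). Beside HOXB, CBX1 rose by 1.19 and ATP5MC1 fell by 1.03, and beside HOXC, ATP5MC2 and SMUG1 changed by -1.12 and -0.56. The SMUG1 call ended in 7 alternatives (limma adjusted p of 0.076 to 0.15). Beside HOXA, 0 of 3 tested genes passed in limma. At an unadjusted limma p under 0.05, 2 of them were lower (SKAP2 and TAX1BP1), against 22.1% of all tested genes. CREB5, also beside HOXA, did not pass the filter. Without the filter it fell by 1.30 (limma adjusted p = 0.024), where 9.31% of all genes were lower. For the calls beside all clusters, 17.9% of all tested genes were higher and 16.5% lower.

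**Figure D4:**
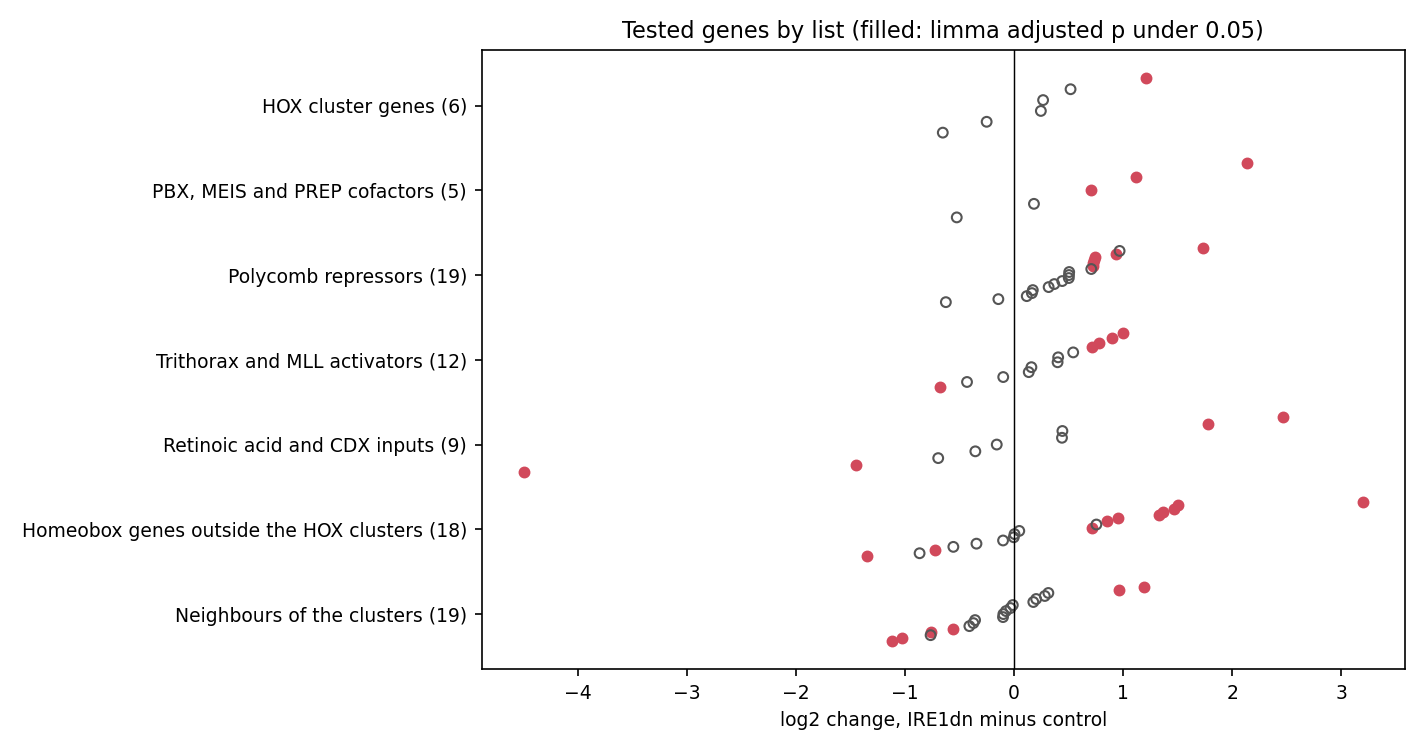
Log2 change (IRE1dn minus control) of each tested gene in the HOX clusters, among HOX partners and regulators, among other homeobox genes and beside the clusters, with the number tested in brackets; filled points passed a limma adjusted p of 0.05. HOXD11 at 1.21 is the filled HOX point, and PBX3 at 2.14 and SUZ12 at 1.73 lie farthest right in their lists.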

How the data were processed

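Per the labels, biotin-labelled RNA was hybridised to 1 array per sample. The deposited values are linear signal intensities for 22277 probe sets, scaled by the authors to a trimmed mean of 100 (2% at each end, from the values). The submitters' processing notes name GCOS 1.2; the sources used here do not give the summarisation algorithm or detection calls. Probe sets were named from the platform annotation, with symbols updated by identifier through RefSeq GRCh38.p14 (19052 of 19064 matched). Log2(signal + 1.75) was fitted with limma 3.58.1 in R 4.3.3 (lmFit, eBayes with trend, no covariate, two-sided) over 7178 genes, with Benjamini-Hochberg adjustment over all of them. The pseudocount, set at the 20th percentile of all signals, understates the change of low genes. Fold changes are IRE1dn minus control. In simulated data over 7178 genes with log2 differences of known size, limma found 3.4% at a size of 0.5, 42% at 1 and 87.8% at 2. After Benjamini-Hochberg adjustment these shares depend on how many genes were set to differ, which is not given here. They are therefore not read as the sensitivity of the fit to the real arrays. The number of arrays limits precision.

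HOX genes past the threshold or with a group mean above the filter level were named array by array, and up to 4 changed genes of each list, with exceptions marked. The members and lists were chosen with earlier results of these data known. The analysis was repeated with other pseudocounts, filters and scalings, the mean of probe sets, array weights, eBayes without trend, a replicate block and each array left out.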

Additional observations from a re-analysis of the deposited data

How the results depend on the processing

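The count of HOX genes past the threshold, 1 higher and 0 lower, was 2 and 1 with no filter and 0 higher with a 60th percentile filter, which tested 2 HOX genes. Leaving out 1 array in turn gave 1 to 2 higher (2 without control array 2, through HOXB2) and 0 to 2 lower (2 without control array 3, through HOXC5 and HOXC6). In the fit without the filter, whose alternatives were chosen after seeing the data, 1 to 2 were higher and 0 to 2 lower with 1 array left out, and 0 were lower with a pseudocount of 16 or eBayes without trend. HOXB7 changed there by -0.83 with a pseudocount of 16, -1.82 with eBayes without trend and -2.45 to -1.47 with 1 array left out, and HOXC6 changed by -0.91 to 0.17 in the filtered fit (0.17 without control array 2). KDM6B turned to 0.15 with the mean of all probe sets. HOXD11 stayed past the threshold in the 16 alternatives to the filtered fit that tested it, while without the filter its call ended without IRE1dn array 1, 2 or 3 (1.15 to 1.29 with 1 array left out; limma adjusted p = 0.059, 0.086 and 0.070). Of 82 tested genes among the listed partners, regulators, homeobox genes and neighbours, 25 rose and 9 fell, against 17.9% and 16.5% of all tested genes. With a 60th percentile filter 5 fell, and with 1 array left out 16 to 26 rose and 5 to 9 fell. Over all genes 1283 were higher and 1185 lower, against 749 and 692 without IRE1dn array 2, 794 and 707 without IRE1dn array 3, and 903 and 935 of 4785 with a 60th percentile filter. Quantile normalization and equal medians moved the median change of all tested genes by -0.04 and -0.07. Same-numbered arrays had correlations of deviations of -0.10, 0.06 and 0.02, so the numbers were not taken as pairs; with a replicate block 1 HOX gene was higher and 0 lower, and the HOXD11 change was 1.21 (limma adjusted p = 0.015). Apart from the fewer genes tested under a stricter filter, the causes were not tested. Signal over background limits what can be read from the 16 of 24 members near it.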

Other observations

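Another 3 probe sets of the HOXD cluster carry several symbols, LOC401021, HOXD4 and HOXD3 together, so they name none of these genes and were in no fit. All 3 read higher in IRE1dn, and the difference was not tested. The first read 0.600, 2.21 and 1.07 units in controls and 12.3, 17.6 and 14.3 units in IRE1dn. The second read 1.54, 1.01 and 0.436 units in controls and 3.54, 3.25 and 2.28 units in IRE1dn, and the third read 0.162, 2.18 and 1.98 units in controls and 4.46, 3.26 and 6.36 units in IRE1dn. The groups did not overlap in any of the 3, which were singled out with their values known; 19.4% of all genes did not overlap with IRE1dn higher. Of their signals 2 lay above 12.97 units, both in IRE1dn and in the first probe set. The probe set of HOXD4 alone was 0.73 higher in IRE1dn on the log2 scale, with overlapping groups (limma adjusted p = 0.43 without the filter).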
